A study of Mus musculus with 9 samples.

Results

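The comparison described here sets mouse embryos that received early pronuclear transfer (EPN) against embryos that received a sham procedure (SPN), the controls of the study. Each group had 3 libraries, lettered A, B and C, and each library was made from the polyadenylated RNA of a pool of 3 embryos at 34 h after fertilization. The protocols, the same for every sample, name B6D2F1 females of 8 to 12 weeks as donors, PMSG alone for germinal vesicle oocytes, PMSG and hCG for mature eggs, and an enucleation of germinal vesicle oocytes that yields abnormal cytoplasts. Which embryos held such a cytoplast, and how the transfer and the fertilization were done, is not described in the labels used here. The labels also do not say whether pools of a group were made on different days or by different hands, and the spread behind each p-value may be technical. A later transfer group (LPN, 3 libraries) entered the fit and is used below only for the genes that differed between EPN and SPN. Genes with at least 1 CPM (a read count relative to the library total) in at least 3 of the 6 EPN and SPN libraries were compared, which gave 13882 of the 19359 genes in the table.

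Pronuclear transfer moves the paternal and maternal pronuclei of a zygote into another egg's cytoplasm, and is known as a route to replace mitochondria. The mouse embryo starts transcribing in the late zygote and, more strongly, at the 2-cell stage, while the messenger RNAs stored in the oocyte are degraded. A transcriptome at this time is therefore a mixture of maternal messages on their way out and zygotic ones on their way in. Multi-copy genes such as Zscan4, Usp17l, Eif1ad and Tdpoz are expressed in a short burst at the 2-cell stage.

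The 6 libraries held 11287155 to 13960413 reads, so that 1 read was worth 0.0716 to 0.0886 CPM. At least 1 CPM was reached by 13555 ± 427 genes in SPN and 13446 ± 491 in EPN (SD, n = 3; two-sided exact permutation p = 0.5, the smallest possible being 0.1). Transcripts used as marks of the 2-cell embryo were present in all libraries, with a summed level of 1617 to 3545 CPM in SPN and 4275 to 5932 CPM in EPN for the 10 markers. The 10 oocyte markers summed to 2849 to 3666 CPM in SPN and 2164 to 2680 CPM in EPN, so that neither sum overlapped between groups. The oocyte sum was mostly Oosp1, and the other 9 markers summed to 1011 to 1559 CPM in SPN and 701 to 1153 CPM in EPN, which overlapped. SPN A had the highest 2-cell sum of the sham libraries. Of 17 markers of cumulus and granulosa cells, 12 were in the table and 4 of these stayed under 1 CPM in all 6 libraries. Their sum was 36.7 to 48.7 CPM in SPN and 27.7 to 61.3 CPM in EPN. The 6 of 12 sperm markers in the table summed to 25.5 to 46.2 CPM in SPN and 15.3 to 35.4 CPM in EPN, and the 4 of 8 blood markers to 49.4 to 103 CPM and 39.1 to 87.6 CPM. The ranges of the cumulus, sperm and blood sums overlapped between the groups.

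SPN A stood apart from the other sham libraries. On the leading principal component, which carried 34.9% of the variance of the 6 libraries, SPN A lay at 27.4, between the EPN libraries at 19.1, 39.6 and 39.8, while SPN B lay at -54.0 and SPN C at -71.9. A position was computed for each library from the 500 genes with the smallest p in a fit without it, on a scale where 0 is the mean of its own group's other libraries and 1 the mean of the other group. SPN A had a median position of 0.83 (quartiles 0.56 to 1.05) and was nearer to EPN for 79.2% of these genes. The same measure gave 0.27 for SPN B, 0.19 for SPN C, 0.31 for EPN A, 0.31 for EPN B and 0.25 for EPN C. SPN A therefore resembled EPN in the genes that separated EPN from SPN B and SPN C, whereas every other library lay nearer to its own group. Spearman correlations over genes, which are not independent replicates, ran from 0.915 to 0.920 between SPN A and the EPN libraries, and were 0.895 and 0.894 between SPN A and the other sham libraries. Whether SPN A differs from its group in handling, in stage or in label was not tested, and results are given with and without it.

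**Figure D1:**
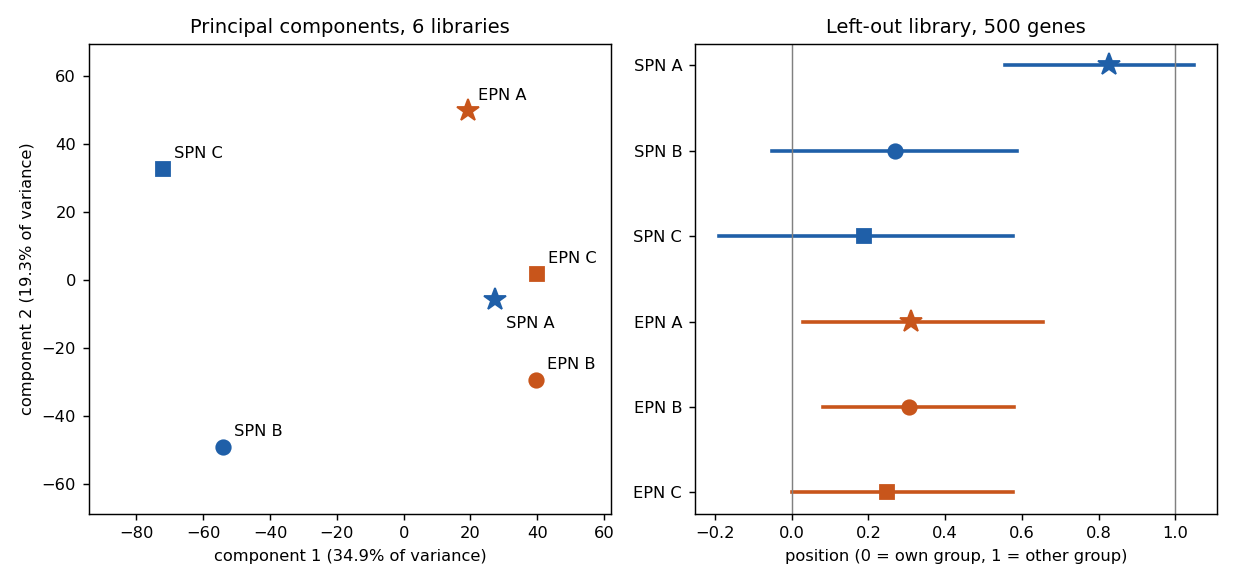
Left, the 6 libraries on the first and the next principal component of log2(CPM + 1), with the share of variance on each axis; blue is SPN, orange EPN, and stars, circles and squares are letters A, B and C. Right, the position of each library when left out (symbol, median; line, quartiles; 500 genes): SPN A sits at 0.83 and the other 5 libraries between 0.19 and 0.31.

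With all 6 libraries, 16 genes (0.115% of those tested) had a Benjamini-Hochberg adjusted p under 0.05 in limma, which is what a call means below. Of these, 11 rose in EPN (0.0792%) and 5 fell (0.036%), and at an unadjusted p under 0.05 there were 1590 genes. The genes that rose encode, among others, a channel subunit (Calhm3), a repressor of the circadian clock (Ciart), a ligand of Eph receptors (Efna1), a lysosomal protease (Ctsc), a splicing protein (Srsf5) and osteopontin (Spp1). Those that fell were Iqub, Utf1, Prex2, Ankrd22 and Clint1. In the 14 with reads in both groups the differences ran from 2.77-fold to 10.8-fold on the log2(CPM + 1) scale, which understates changes of low genes. Each library mattered for the number of calls. Leaving out SPN C or EPN C gave 0 calls in limma (1011 and 1128 genes at an unadjusted p under 0.05), leaving out SPN B gave 1, EPN A 4 and EPN B 10, and leaving out SPN A gave 468. edgeR's quasi-likelihood test on the recovered reads called 0 genes (1185 at an unadjusted p under 0.05) and DESeq2 called 98.

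**Figure D2:**
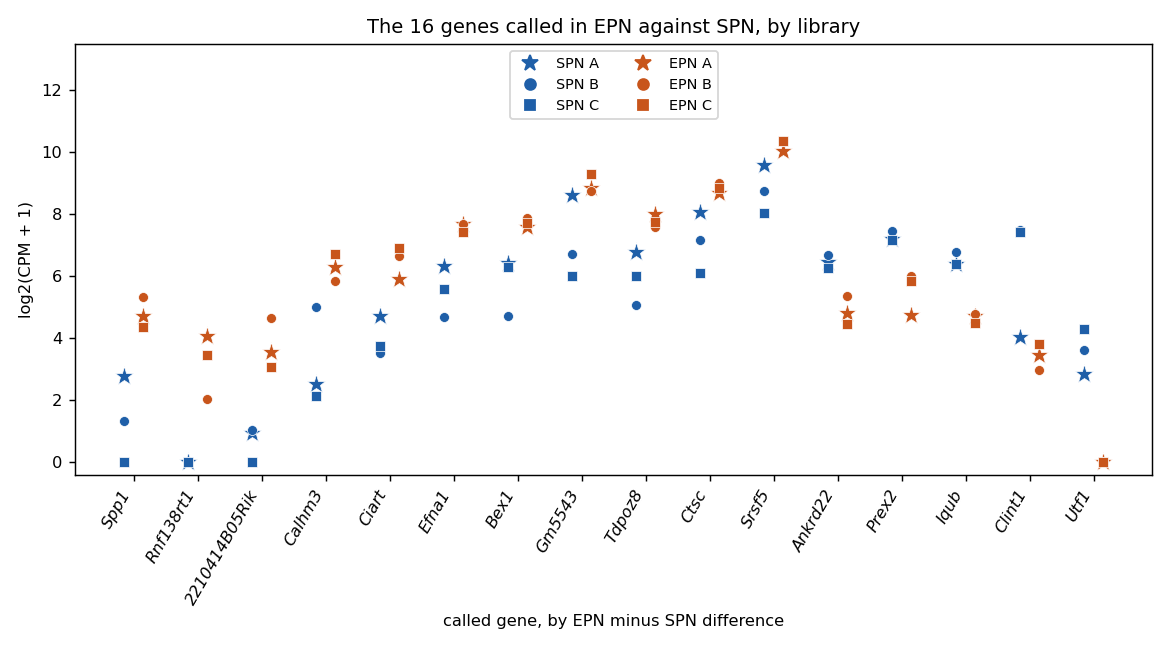
Each of the 16 called genes with its log2(CPM + 1) in the 3 SPN libraries (blue) and the 3 EPN libraries (orange); stars, circles and squares are letters A, B and C. The SPN and EPN symbols of a gene do not overlap in any of the 16, and the blue star of SPN A lies close to the orange symbols for Clint1 and Gm5543.

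Calhm3, a subunit of a voltage-gated channel pore known from taste cells, was at 4.80, 31.0 and 3.41 CPM in SPN A, B and C and at 78.6, 57.1 and 104 CPM in EPN A, B and C. It was the most strongly supported gene, 8.41-fold higher in EPN (log2 difference 3.07 ± 0.48, SE; limma adjusted p = 0.0053), and here SPN A lay at the low sham level. Ciart, which encodes a repressor of the CLOCK-BMAL1 activators, was at 25.3, 10.6 and 12.6 CPM in SPN and at 59.6, 100.2 and 120 CPM in EPN. The lowest EPN library exceeded the highest SPN library by a wide margin, and the difference was 5.63-fold (log2 2.49 ± 0.41; limma adjusted p = 0.0059). Efna1, a membrane-anchored ephrin ligand, was at 79.2, 25 and 47.3 CPM in SPN and at 206, 206 and 173 CPM in EPN, 4.20-fold higher (log2 2.07 ± 0.35; limma adjusted p = 0.0065). For Ciart and Efna1, SPN A was the highest sham library but remained below every EPN library.

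Ctsc, the lysosomal cysteine protease cathepsin C, was at 269, 144 and 68.7 CPM in SPN and 415, 515 and 458 CPM in EPN. The EPN libraries lay close together, whereas the sham libraries were spread from low to intermediate, and the log2 difference was 1.72 ± 0.33 (limma adjusted p = 0.023). Srsf5, an SR protein that takes part in splice site choice, showed the same order of libraries, with 772, 428 and 264 CPM in SPN and 1053, 1332 and 1328 CPM in EPN (log2 1.47 ± 0.30; limma adjusted p = 0.036). Bex1, a small X-linked gene best known from neurons, was at 85.4, 25.5 and 77.7 CPM in SPN and 191, 233 and 212 CPM in EPN (log2 1.91 ± 0.39; limma adjusted p = 0.036). Its SPN A value was next to that of SPN C. Tdpoz8, of the multi-copy TRAF and POZ domain family of the 2-cell stage, was at 110, 33.0 and 63.8 CPM in SPN and 259, 191 and 215 CPM in EPN (log2 1.82 ± 0.36; limma adjusted p = 0.027). Reads of near-identical Tdpoz copies can be assigned to either copy, so the member itself is uncertain.

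Spp1, Rnf138rt1 and 2210414B05Rik were at or near 0 in most sham libraries. Spp1, which encodes the secreted integrin ligand osteopontin, was at 5.95, 1.51 and 0 CPM in SPN and at 25.6, 39.8 and 19.4 CPM in EPN (log2 3.44 ± 0.72; limma adjusted p = 0.036). Rnf138rt1, a retrotransposed copy related to the ubiquitin ligase gene Rnf138, had 0 reads in all 3 sham libraries and 15.7, 3.12 and 10 CPM in EPN. Against a floor of 3 reads in each sham library, 0.248 CPM on average, the EPN mean of 9.62 ± 6.29 CPM (SD, n = 3) was at least 38.8-fold higher (limma adjusted p = 0.027). This limit bounds the sham side only and does not cover the spread among the EPN libraries. Reads shared with the parent gene also make Rnf138rt1 uncertain. The uncharacterised 2210414B05Rik was at 0.931, 1.06 and 0 CPM in SPN and 10.9, 24.1 and 7.49 CPM in EPN (limma adjusted p = 0.03). Gm5543, a predicted gene, was at 394, 104 and 62.9 CPM in SPN and 457, 431 and 629 CPM in EPN (limma adjusted p = 0.042). In Gm5543 SPN A lay much nearer to the EPN libraries than to SPN B and SPN C, although the groups did not overlap.

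Among the genes that fell, Iqub, which encodes an IQ and ubiquitin-like domain protein of sperm flagella, was at 83.4, 109 and 83.0 CPM in SPN and 25.7, 26.7 and 21.4 CPM in EPN, 3.61-fold lower (log2 -1.85 ± 0.34; limma adjusted p = 0.019). Prex2, an exchange factor that activates Rac, was at 148, 176 and 143 CPM in SPN and 25.9, 63.5 and 56.3 CPM in EPN (log2 -1.75 ± 0.33; limma adjusted p = 0.023). Ankrd22, an ankyrin repeat gene, was at 87.5, 101 and 75.3 CPM in SPN and 27.2, 40.3 and 21.2 CPM in EPN (log2 -1.58 ± 0.33; limma adjusted p = 0.036). In these 3 genes the sham libraries, SPN A included, lay close together and well above all EPN libraries.

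Utf1, a chromatin-associated factor of pluripotent cells, was at 6.16, 11.3 and 18.7 CPM in SPN and had 0 reads in all 3 EPN libraries. With a floor of 3 reads per EPN library, 0.225 CPM on average, it was at least 53.5-fold lower in EPN than the sham mean of 12.0 ± 6.32 CPM (SD, n = 3; limma adjusted p = 0.023). Clint1, which encodes a clathrin adaptor of the trans-Golgi network, was at 15.5, 181 and 173 CPM in SPN and at 10.1, 6.80 and 13 CPM in EPN (log2 -2.92 ± 0.61; limma adjusted p = 0.037). Its SPN A value was only slightly above EPN, at a position of 0.84, so the Clint1 difference was carried by SPN B and SPN C. Without SPN A it was 16.7-fold lower in EPN.

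Promoters were read for the called genes from RefSeq (GRCm38.p6), an assembly older than the one the authors aligned to, and 11 of the 16 had an entry. The 250 bases before the annotated start are shown for Ciart, the called gene of a pathway with a known promoter element, and for Iqub and Utf1, 2 genes that fell. Capitals mark exact matches on either strand to the E-box CACGTG, the CCAAT box and the GC box GGGCGG.
Ciart, chr3:95882229-95882478, minus strand: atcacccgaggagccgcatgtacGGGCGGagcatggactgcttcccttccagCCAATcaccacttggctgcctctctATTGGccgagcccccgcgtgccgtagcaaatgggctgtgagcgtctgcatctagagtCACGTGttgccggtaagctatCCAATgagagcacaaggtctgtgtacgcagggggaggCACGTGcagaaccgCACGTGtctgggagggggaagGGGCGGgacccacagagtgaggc
Iqub, chr6:24515068-24515317, minus strand: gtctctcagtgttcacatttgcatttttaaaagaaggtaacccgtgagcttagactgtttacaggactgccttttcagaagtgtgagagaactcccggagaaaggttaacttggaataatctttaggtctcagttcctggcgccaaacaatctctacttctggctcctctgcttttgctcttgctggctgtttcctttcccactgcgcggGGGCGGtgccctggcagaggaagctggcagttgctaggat
Utf1, chr7:139943606-139943855, plus strand: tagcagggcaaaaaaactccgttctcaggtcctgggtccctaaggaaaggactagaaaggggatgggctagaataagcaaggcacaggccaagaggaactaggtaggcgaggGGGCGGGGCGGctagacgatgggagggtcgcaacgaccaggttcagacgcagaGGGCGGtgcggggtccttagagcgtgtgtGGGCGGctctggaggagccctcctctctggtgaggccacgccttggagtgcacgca

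The Ciart window held 3 E-boxes, starting 116, 58 and 44 bases before the start. Among 10673 promoters of tested genes, 8.33% held at least 1 E-box and 0.141% held 3 or more. Ciart was the 1 called gene of 11 with an E-box, and of 21 genes of the circadian list with a promoter entry 5 had 1 or more (Bhlhe41, Ciart, Cry1, Per1 and Tef). The GC box was found in 7 of the 11 called genes and in 55.1% of all promoters. In Utf1, 2 of its 4 GC boxes overlap in the run of capitals. The D-box TTATGTAA and the NR5A-type CAAGGTCA were in none of the 11 windows and in 0.6% and 1.04% of all promoters. A CCAAT box was in 2 of 11 (Ciart and Spp1; 37.8% of all), the homeobox-type GGATTA in 3 (Tdpoz8, Rnf138rt1 and Ankrd22; 5.59%) and TATAAA in 1 (Spp1; 7.27%). These matches describe letters in a window and were not tested.

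Iqub, Prex2, Ankrd22, Rnf138rt1 and Spp1 also differed between later and early transfer, at a limma adjusted p of 0.0059, 0.022, 0.0059, 0.022 and 0.025, 5 of the 16 called genes, where 239 of all tested genes (1.72%) were called in that contrast. Both contrasts use the same EPN libraries, so a gene with extreme EPN values is favoured in both and the count is a description. Iqub was at 99.4, 141 and 68.5 CPM and Ankrd22 at 122, 108 and 138 CPM in LPN, levels that overlapped with or exceeded those of SPN. Prex2 was at 177, 117 and 116 CPM in LPN, and Rnf138rt1 had 0 reads in LPN A and LPN B and 0.754 CPM in LPN C. Spp1 was at 0, 5.12 and 3.85 CPM in LPN, within the range of SPN. Of these 5 genes, Iqub, Prex2 and Ankrd22 were thus low in EPN beside both other groups, and Rnf138rt1 and Spp1 high. By contrast Ctsc was at 401, 495 and 547 CPM in LPN and Clint1 at 5.33, 4.99 and 8.63 CPM, near or beyond the EPN levels, with limma adjusted p of 0.95 and 0.62 for LPN against EPN. Calhm3 was at 141, 89.6 and 121 CPM in LPN (adjusted p = 0.53 against EPN).

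Beyond the calls, the groups did not overlap in 1019 genes with higher values in EPN (7.34%) and in 1077 genes with lower values (7.76%). Uncalled genes were then restricted to those with at least 5 CPM on average, no overlap and a symbol outside the Gm, Rik, LOC and accession-number patterns. The 8 of smallest p among them in each direction had adjusted p from 0.06 to 0.097 in limma, and they are given as values. On the higher side stood Nxf2, an X-linked RNA export factor, at 117, 10 and 18.5 CPM in SPN and 119, 187 and 128 CPM in EPN, where SPN A lay just below the lowest EPN library. Usp17lb, a 2-cell deubiquitinase, was at 1056, 476 and 289 CPM in SPN and 1446, 1555 and 1390 CPM in EPN, again with SPN A in between. Dkkl1, a secreted protein of the acrosome, was at 43.1, 33.0 and 38.5 CPM in SPN and 122, 104 and 87.8 CPM in EPN, with SPN A among the sham libraries. The others were Zfp353-ps, Tuba3b, Prrx2, Eif1ad7 and Fthl17b.

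On the lower side, Mrps30, a protein of the mitochondrial ribosome, was at 124, 183 and 159 CPM in SPN and 54.6, 77.8 and 52.8 CPM in EPN. E2f5, a repressor of cell cycle genes, was at 498, 459 and 668 CPM in SPN and 290, 208 and 220 CPM in EPN. Asb8, a substrate receptor of a ubiquitin ligase, was at 96.3, 129 and 138 CPM in SPN and 43.4, 45.9 and 35.9 CPM in EPN. In all 3 genes every sham library, SPN A included, exceeded every EPN library, which the selection for no overlap required. Eif3j2, Smim11, Scamp1, Pnlip and D16Ertd519e completed this side.

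Without SPN A, limma called 468 genes, of which 286 rose in EPN (2.06%) and 182 fell (1.31%). All 16 genes of the full comparison were among them. Leaving out a sham library that lies near EPN favours small p-values, and only SPN B and SPN C remain as sham. Calls and adjusted p without SPN A are therefore descriptions. The split between higher and lower calls moved with the scaling. In this fit the overall median log2 difference was -0.18. With median-of-ratios scaling, which brought that median to -0.04, 403 genes rose and 101 fell. edgeR's quasi-likelihood test called 295 genes in the same libraries, 238 higher and 57 lower. SPN A played no part in choosing these genes, and its place among them can therefore be read. Of the 286 that rose, SPN A lay inside the range of the EPN libraries in 100, between the groups in 127, beyond EPN in 47, inside the range of SPN B and SPN C in 11 and beyond them in 1. Of the 182 that fell the counts were 64, 73, 36, 7 and 2 in the same order. The median position of SPN A was 0.83 for the former and 0.85 for the latter.

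**Figure D3:**
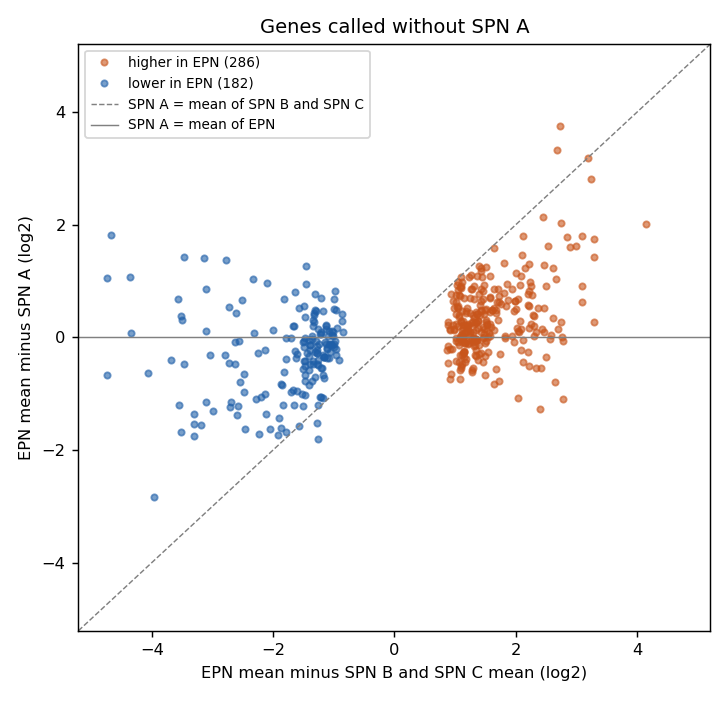
The 468 genes called without SPN A; x axis, EPN mean minus the mean of SPN B and SPN C, and y axis, EPN mean minus SPN A, both in log2 units. Points on the dashed diagonal would have SPN A at the level of SPN B and SPN C and points on the horizontal line at the EPN mean; most points lie nearer to the line, with a median position of 0.83 for the 286 genes higher in EPN and 0.85 for the 182 lower.

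In several of the strongest of these genes SPN A and EPN were alike at a low level. The processed ribosomal pseudogenes Rps2-ps13, Rpsa-ps2 and Rps19-ps6 (1.86, 40 and 44.1 CPM in SPN and 0.94, 4.14 and 4.27 CPM in EPN) belonged to this kind. Rps2-ps13 was at 4.66, 141 and 102 CPM in SPN and 5.20, 7.89 and 2.85 CPM in EPN, and Rpsa-ps2 at 0.287, 82.6 and 60.3 CPM and 1.95, 1.80 and 1.35 CPM. Reads of these copies cannot be told apart with certainty from those of their parent genes. Uqcrq, a small subunit of respiratory complex III, was at 77.4, 475 and 356 CPM in SPN and 80.5, 99.1 and 68.2 CPM in EPN. Spesp1, a sperm equatorial segment protein, was at 0, 174 and 45.8 CPM in SPN and 6.58, 4.84 and 0 CPM in EPN. In each of these genes SPN B and SPN C were high and SPN A lay inside or below the EPN range.

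In other genes SPN A and EPN were alike at a high level. Prc1, which bundles microtubules of the central spindle, was at 703, 149 and 94.9 CPM in SPN and 430, 506 and 642 CPM in EPN, so that SPN A exceeded all EPN libraries. Kpna2, an importin alpha, was at 2546, 1162 and 931 CPM in SPN and 2660, 3106 and 3319 CPM in EPN. Usp33, a deubiquitinase, was at 150, 27.5 and 34.8 CPM in SPN and 144, 147 and 193 CPM in EPN. Without SPN A their limma adjusted p was 0.00014, 0.00075 and 0.00012, and with it 0.22, 0.13 and 0.097.

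Functions were described through 60 gene lists, each by its members' counts and its median log2 difference relative to all tested genes, whose own median was -0.07 and of which 45.5% were above 0. Over all tested genes the groups did not overlap in 7.34% (higher in EPN) and 7.76% (lower), and 2.06% and 1.31% were called without SPN A, and the counts below are to be read against these shares. The 2-cell-specific genes had the highest median, 0.76 above all genes (0.49 to 1.21 over the alternative settings). Of 38 tested members 32 were above 0, the groups did not overlap in 12, all higher in EPN, and Tdpoz8 was called. By library, the mean log2 level of the list was 6.52, 6.08 and 5.71 in SPN and 6.83, 7.11 and 6.61 in EPN, so SPN A was the sham library nearest to EPN and EPN C was the lowest EPN library. Without SPN A 12 members were called higher, including Zfp352, Usp17lb, Eif1ad7 and Tdpoz8, and Tcstv1 was called lower (15 higher and 0 lower with median-of-ratios scaling). Zfp352, a zinc finger gene of the 2-cell burst, was at 559, 288 and 291 CPM in SPN and 603, 708 and 653 CPM in EPN (limma adjusted p = 0.24). Zscan4d, a telomere-associated gene, was at 546, 377 and 185 CPM in SPN and 521, 986 and 355 CPM in EPN, and its groups overlapped (limma adjusted p = 0.41). Reads of the multi-copy members can be shared between copies.

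**Figure D4:**
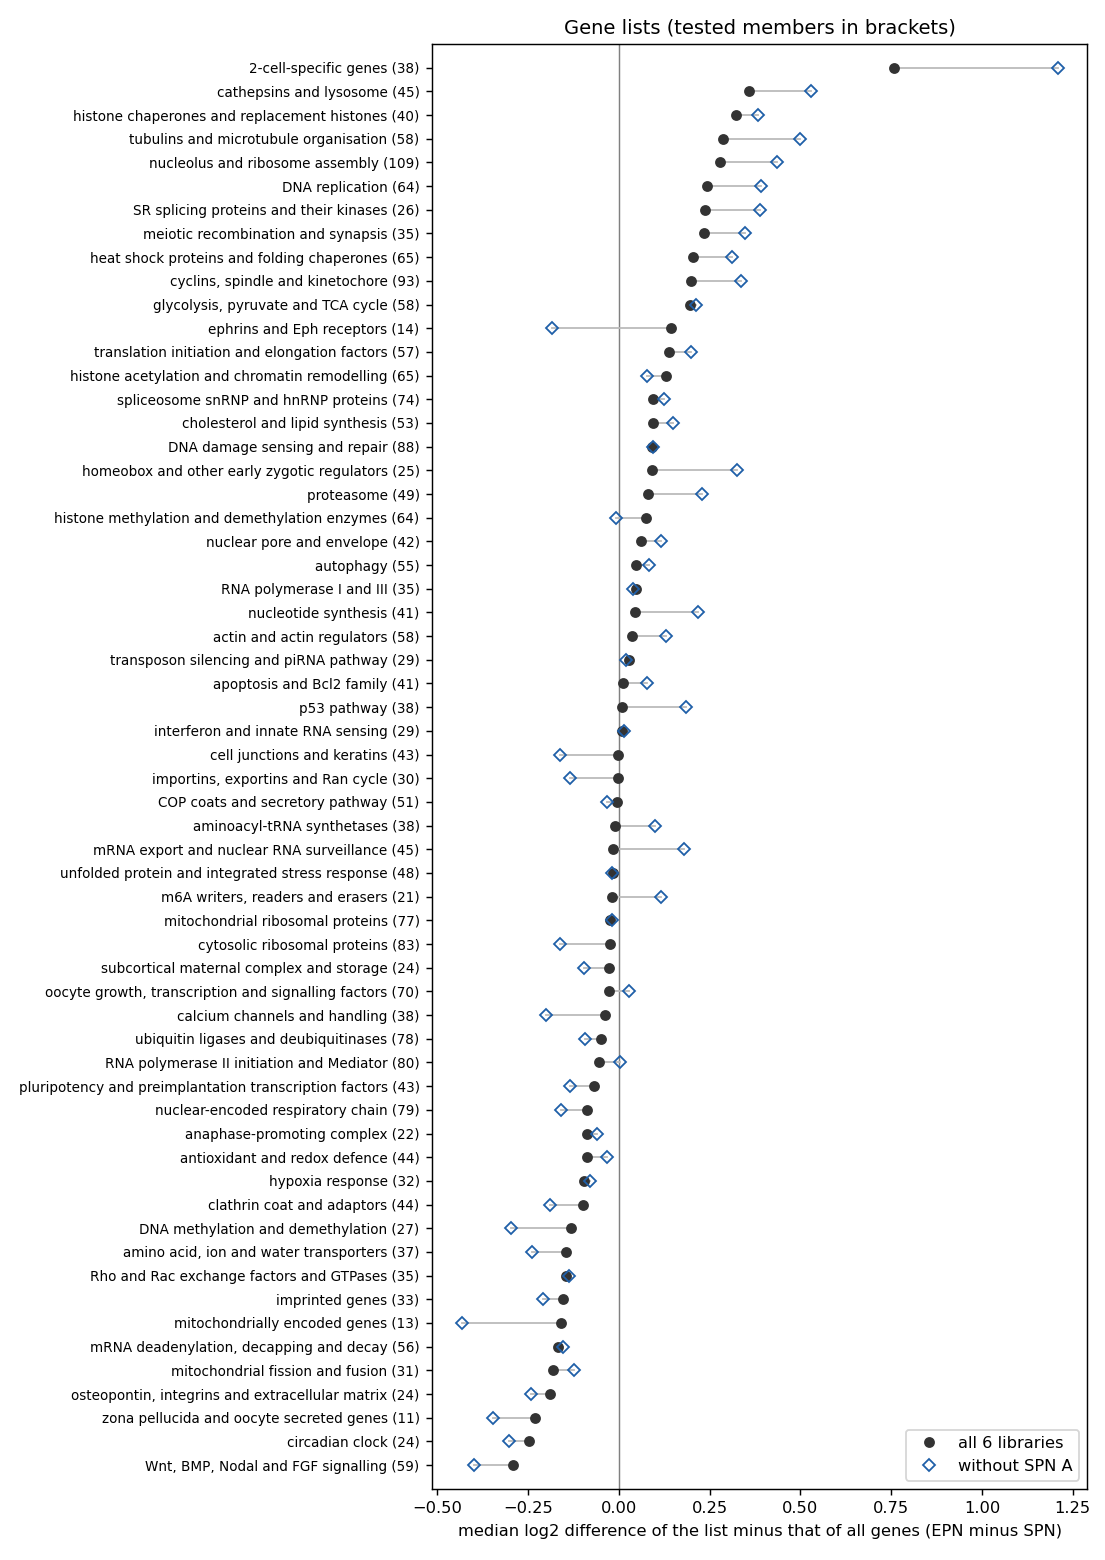
Median log2 difference (EPN minus SPN) of each of the 60 gene lists minus the median of all tested genes, with all 6 libraries (filled circles) and without SPN A (open diamonds); the number of tested members is in brackets. The 2-cell-specific genes lie at 0.76 and 1.21, and the Wnt, BMP, Nodal and FGF list at -0.29 and -0.40.

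Genes of the lysosome came next, with a median 0.36 above all genes. Lysosomes digest proteins, glycans and lipids with cathepsins and glycosidases in a compartment acidified by a proton pump. Of 45 tested members 31 were above 0, and the groups did not overlap in 10 with higher and 3 with lower values in EPN. Ctsc was called with all libraries. Ctsa, the protective protein of lysosomal glycosidases, was at 114, 112 and 54.1 CPM in SPN and 248, 154 and 168 CPM in EPN, and Glb1, lysosomal beta-galactosidase, at 64.5, 61.6 and 38.8 CPM and 145, 102 and 112 CPM. Their limma adjusted p was 0.21 and 0.16 with all libraries and 0.049 and 0.031 without SPN A, where 7 members, including Ctsa, Ctsb, Ctsc, Ctsl and Glb1, were called higher and 0 lower. Ctsl, the abundant cathepsin L, was at 863, 608 and 421 CPM in SPN and 1100, 935 and 840 CPM in EPN. For Ctsl, SPN A lay inside the EPN range and the other sham libraries below it.

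**Figure D5:**
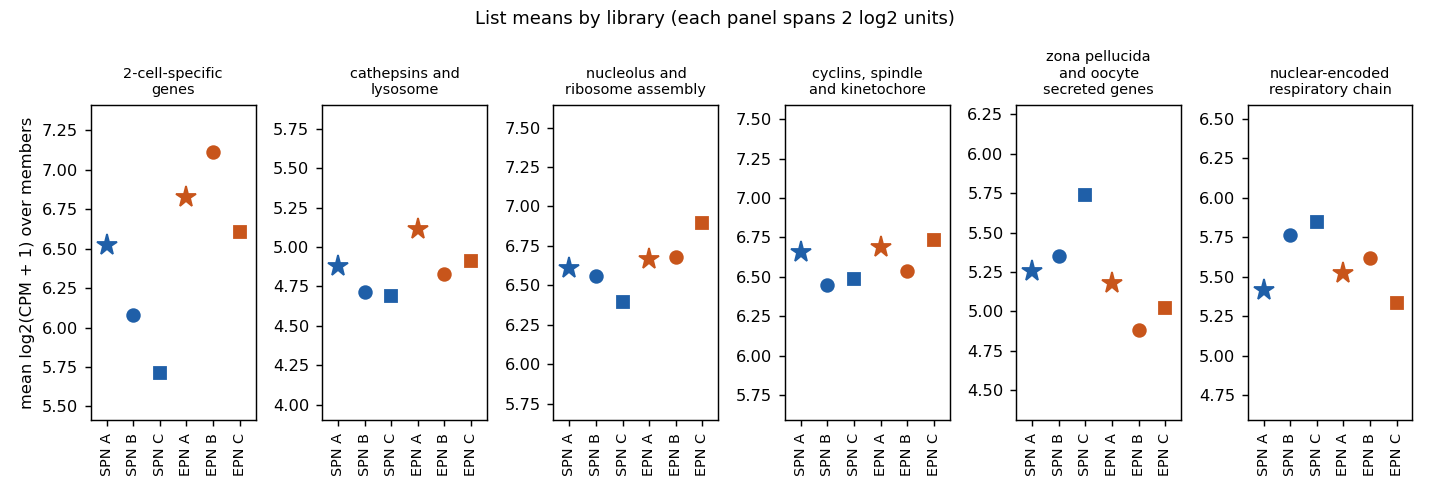
Mean log2(CPM + 1) over the tested members of 6 gene lists in each SPN (blue) and EPN (orange) library; stars, circles and squares are letters A, B and C, and each panel spans 2 log2 units around its own centre. The 2-cell-specific genes run from 5.71 in SPN C to 7.11 in EPN B, and SPN A, at 6.52, is the highest sham library there.

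Genes that build ribosomes in the nucleolus had a median 0.28 above all genes, with 79 of 109 members above 0 and no overlap in 17 higher and 3 lower. Nolc1, a nucleolar chaperone, was at 380, 343 and 268 CPM in SPN and 566, 589 and 776 CPM in EPN (limma adjusted p = 0.18). Ltv1, an export factor of the small subunit, was at 223, 119 and 96.1 CPM in SPN and 255, 360 and 290 CPM in EPN (limma adjusted p = 0.12). Without SPN A, 8 members were called higher (Ncl, Dkc1, Ltv1, Imp4, Utp23, Nolc1, Pwp1 and Riok2) and 0 lower. Npm1, the abundant nucleolar chaperone nucleophosmin, differed by less than its error (log2 0.08 ± 0.27) and took the opposite sign without SPN A (-0.04), without EPN B (-0.11) and with array weights (-0.021). The cytosolic ribosomal proteins themselves had a median 0.02 below all genes, with 28 of 83 above 0. Without SPN A, 1 of them was called higher (Rpl29) and 5 lower (including Rpl36, Rpl36a and Rps27), but 3 higher and 1 lower with median-of-ratios scaling. The median of this list was above all genes without SPN B or without EPN A.

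Histone chaperones and replacement histones had a median 0.32 above all genes (0.22 to 0.38 over the alternative settings), with 26 of 40 members above 0 and 4 called higher and 0 lower without SPN A, including Supt16 and H1f8. Supt16, a subunit of the FACT complex that moves histones during transcription and replication, was at 31.7, 11.3 and 18.6 CPM in SPN and 55.2, 49.4 and 73.7 CPM in EPN (limma adjusted p = 0.085, and 0.005 without SPN A). H1f8, the oocyte linker histone, was at 150, 87.6 and 68.2 CPM in SPN and 156, 160 and 325 CPM in EPN (limma adjusted p = 0.22). Tubulins and microtubule genes had a median 0.29 above all genes, with 36 of 58 members above 0 and no overlap in 10 higher and 2 lower. Without SPN A 5 members were called higher (Tuba3a, Tuba3b, Tubg1, Tubd1 and Stmn1) and 0 lower. Tuba3b and Tuba3a, alpha-tubulins with near-identical sequence between which reads may be shared, were at 39.1, 12.4 and 32.6 CPM and at 15.8, 19.7 and 11.5 CPM in SPN. Their EPN values were 89.3, 77.7 and 116 CPM and 65.8, 37.0 and 49.8 CPM, above every sham library.

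Cyclins, spindle and kinetochore genes had a median 0.20 above all genes, with 56 of 93 above 0 and no overlap in 11 higher (11.8%) and 6 lower (6.45%), the latter near the share over all genes. Ccnb1, the mitotic cyclin B1, was at 3992, 2205 and 1624 CPM in SPN and 4356, 4693 and 5032 CPM in EPN (limma adjusted p = 0.21). Smc1a, a cohesin subunit, was at 57.5, 51.5 and 48.3 CPM in SPN and 110, 82.7 and 125 CPM in EPN (limma adjusted p = 0.2). The 7 members called higher without SPN A were Ccnb1, Aurka, Kif20a, Prc1, Tpx2, Smc1a and Smc3, with 0 lower. For Ccnb1 SPN A was near EPN, at a position of 0.82, whereas for Smc1a it was with the sham libraries, at 0.19. Cdc20, the activator of the anaphase-promoting complex, was at 424, 183 and 175 CPM in SPN and 474, 440 and 638 CPM in EPN.

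For the DNA replication machinery, since the series' title names the first embryonic replication, members are given in more detail. The median lay 0.24 above all genes (0.05 to 0.39 over the alternative settings), with 38 of 64 members above 0 and no overlap in 9 higher (14.1%) and 5 lower (7.81%), the latter at the share over all genes. Pcna, the sliding clamp of the polymerases, was at 251, 214 and 186 CPM in SPN and 209, 265 and 263 CPM in EPN, a log2 difference of 0.18 ± 0.27 (limma adjusted p = 0.83). Mcm4, of the replicative helicase, was at 88.2, 47.2 and 38.7 CPM in SPN and 89.5, 125 and 109 CPM in EPN, and Gins1, of the same helicase complex, at 26.7, 48.0 and 48.8 CPM and 17.9, 15.5 and 19.3 CPM. Neither passed the test with all libraries (limma adjusted p = 0.26 and 0.23), and the Mcm4 level of SPN A was almost that of EPN A. Without SPN A, Mcm4 and Top1 were called higher and Gins1 and Gins3 lower, counts near the shares over all genes. DNA damage and repair genes had a median 0.09 above all genes and 46 of 88 members above 0. Without SPN A 1 of them was called higher and 2 lower (3 and 1 with median-of-ratios scaling). In the p53 list the median was 0.01 above all genes and 19 of 38 members were above 0. Without SPN A 0 of its members were called higher and 1 lower (1 and 1 with that scaling), close to the shares over all genes. Cdkn1a, the p53-induced cell cycle inhibitor, was at 83.5, 34.6 and 121 CPM in SPN and 251, 156 and 66.0 CPM in EPN, and Mdm2, the ubiquitin ligase of p53, at 78.0, 122 and 140 CPM and 182, 123 and 102 CPM. The groups overlapped in both genes, with limma adjusted p of 0.37 and 0.79.

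Heat shock proteins and chaperones had a median 0.20 above all genes, with 38 of 65 above 0. The groups did not overlap in 11 higher (16.9%) and 3 lower (4.62%). Without SPN A 3 members were called higher (Hspa8, Hsp90ab1 and Stip1) and 1 lower (Ptges3), or 5 and 1 with median-of-ratios scaling. Hsp90ab1, the constitutive HSP90, was at 563, 544 and 461 CPM in SPN and 995, 1170 and 1407 CPM in EPN (log2 1.18 ± 0.31; limma adjusted p = 0.1), with SPN A at the sham level. Ptges3, an HSP90 cochaperone, was at 129, 260 and 324 CPM in SPN and 101, 114 and 103 CPM in EPN (limma adjusted p = 0.18). Both passed the threshold without SPN A (limma adjusted p = 0.039 and 0.0046). In the glycolysis, pyruvate and TCA cycle list the median was 0.20 above all genes (0.015 to 0.22 over the alternative settings). Of 58 members 32 were above 0. The groups did not overlap in 4 higher (6.9%) and 2 lower (3.45%), the former near the share over all genes. Without SPN A Eno1, Pdha1, Idh3g and Mdh2 were called higher and 0 lower. Mdh2, mitochondrial malate dehydrogenase, was at 441, 304 and 306 CPM in SPN and 582, 587 and 731 CPM in EPN.

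For the respiratory chain encoded in the nucleus the median was 0.09 below all genes, 28 of 79 members were above 0, and the groups did not overlap in 3 higher and 10 lower. Without SPN A 2 members were called higher (Uqcrc1 and Uqcrfs1) and 3 lower (Uqcrq, Uqcr10 and Cox6c). With median-of-ratios scaling these counts were 2 and 1. Among members of complex III, Uqcrc1 was at 26.4, 19.2 and 25.5 CPM in SPN and 79.8, 54.0 and 52.6 CPM in EPN, while Uqcr10 was at 81.7, 148 and 129 CPM and 55.9, 85.7 and 53.1 CPM. Of the 13 mitochondrially encoded genes 5 were above 0, the groups overlapped in all of them, and none was called. COX1, a cytochrome c oxidase subunit encoded by mitochondrial DNA, was at 7274, 12385 and 11267 CPM in SPN and 9024, 12128 and 10943 CPM in EPN. Its difference of 0.08 ± 0.31 (limma adjusted p = 0.94) changed sign without SPN A (-0.15), without EPN B (-0.016) and with array weights (-0.057).

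The lowest median was that of the Wnt, BMP, Nodal and FGF signalling list, 0.29 below all genes (-0.43 to -0.06 over the alternative settings). Of 59 members 18 were above 0. The groups did not overlap in 3 higher (5.08%) and 5 lower (8.47%), the latter near the share over all genes. The mean log2 level of the list was 3.31, 3.86 and 4.34 in SPN and 3.73, 3.51 and 3.55 in EPN. SPN A thus lay below every EPN library, and only SPN B and SPN C lay above. Without SPN A 1 of its members, Spry4, was called lower, a count near the share over all genes. With median-of-ratios scaling Spry4 was not called (limma adjusted p = 0.061), and the list held 1 member called higher and 0 lower. The zona pellucida and oocyte secreted genes had a median 0.23 below all genes and 3 of 11 members above 0. Over the alternative settings this median ran from -0.55 to -0.0047 relative to all genes, the latter without SPN C, where the Wnt list was also nearest to all genes. Oosp3, an oocyte secreted protein, was at 333, 351 and 361 CPM in SPN and 164, 164 and 146 CPM in EPN (log2 -1.14 ± 0.29; limma adjusted p = 0.097), with small spread in both groups and SPN A at the sham level. Oosp2 was at 28.4, 57.4 and 78.8 CPM in SPN and 16.6, 16.3 and 22.5 CPM in EPN (limma adjusted p = 0.19). Both were called lower without SPN A, with limma adjusted p of 0.027 and 0.018, but with median-of-ratios scaling only Oosp2 was (0.032, against 0.082 for Oosp3). Cd9, an egg surface protein needed for fusion with sperm, was in the same list and called higher without SPN A (limma adjusted p = 0.02), with 161, 99.2 and 40.1 CPM in SPN and 204, 184 and 135 CPM in EPN. Zp3, the sperm receptor of the zona, was at 85.5, 69.4 and 105 CPM in SPN and 109, 120 and 93.3 CPM in EPN (limma adjusted p = 0.71), and Gdf9, the oocyte growth factor, at 124, 153 and 202 CPM and 135, 81.2 and 106 CPM (limma adjusted p = 0.49). The groups overlapped in both. Fewer cells holding a transcript and less of it in each cell cannot be told apart in pooled embryos.

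In the circadian list, 6 of 24 members were above 0 and the median lay 0.25 below all genes, so that Ciart was the 1 member called and the list as a group did not share its direction; without EPN B the list's median was level with all genes. Per3, a period gene, was at 12.2, 44.6 and 56.6 CPM in SPN and 20.5, 15.9 and 16.3 CPM in EPN (limma adjusted p = 0.54). The ephrin and Eph receptor list, with 7 of 14 members above 0, also held a single called gene, Efna1. In this list the groups did not overlap in 3 members higher in EPN (21.4%) and 0 lower. Its median moved from 0.14 above all genes to 0.18 below without SPN A. The deadenylation and decay machinery, which removes maternal messages, had a median 0.17 below all genes and 16 of 56 members above 0. Dcp1b, a decapping cofactor, was at 2.94, 3.28 and 4.90 CPM in SPN and at 0.0723, 0 and 0.0749 CPM in EPN, which is at most 1 read per EPN library (limma adjusted p = 0.13). Among pluripotency factors, Pou5f1 was at 27.0, 21.0 and 33.9 CPM in SPN and 57.9, 31.1 and 49.2 CPM in EPN (limma adjusted p = 0.54), and Prdm14 at 6.09, 12.1 and 11.5 CPM and 15.5, 53.5 and 55.9 CPM (0.097), so that Utf1 was the only member of this list called with all libraries. Without SPN A 1 member was called higher (Zfp42) and 2 lower (Utf1 and Klf4). With median-of-ratios scaling Zfp42 was still called higher, but only Utf1 lower.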

How the data were processed

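Poly(A) RNA of pooled mouse embryos was sequenced, per the labels' protocols, after Smart-seq2 v4 cDNA synthesis and Nextera XT library preparation, as 150-bp paired ends on a NovaSeq instrument. The tools named in the submitters' processing notes are HISAT2 2.2.1, Trim Galore 0.6.7, edgeR and R 3.3.3, and the assembly is GRCm39; the counter and annotation are not given in the sources used here. CPM values of 19359 genes were deposited. In all 6 libraries 100% of the values were whole multiples of 1 read within a tolerance of 0.01 reads, so reads were recovered. Between 3.66% and 4.40% of each library total lay outside the table.

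Genes reaching 1 CPM in 3 or more of the 6 EPN and SPN columns were tested on log2(CPM + 1) with limma 3.58.1 (R 4.3.3), in a model over all 9 libraries with two-sided contrasts, trend-adjusted empirical Bayes and Benjamini-Hochberg adjustment over all tested genes. A call is an adjusted p under 0.05. Alternatives were edgeR 4.0.16 and DESeq2 1.42.0 on the recovered reads, other filters, pseudocounts and scalings, and leaving out each library. The scripts' calls were tested on simulated data. The simulation gave every gene the same spread setting and held no outlying library, so it does not show how calls behave in these data. Each ± after a log2 difference is its SE, and each library value is a CPM. A count of 0 allowed up to 3 reads, a limit that covers counting error only (PCR copies of a molecule are not told apart).

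The comparison, the 60 lists and the naming rule were chosen with earlier results of these data known. The rule picked the called genes, the 3 members of each list with the smallest p, and 10 preset genes. Further picks needed at least 5 CPM on average and a symbol outside the Gm, Rik, LOC and accession-number patterns. They were the 8 uncalled genes each way with the smallest p and no overlap. The 10 genes each way with the smallest p without SPN A, called or not, were added. Not every gene picked in this way is named above. Other list members called without SPN A, Ctsl, and clock genes with an E-box are named after their values were seen. Of the tested symbols 13402 occurred in GENCODE M21, which covers GRCm38, and its coordinates were not used. Identical values in all libraries were found for 130 tested genes, in 64 sets, which repeat each other.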

Additional observations from a re-analysis of the deposited data

How the results depend on the processing

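The count of 16 called genes moved with most settings. It was 0 with no filter beyond a CPM above 0 in 1 library (1863 genes at an unadjusted p under 0.05 in limma), 4 and 9 with pseudocounts of 0.1 and 0.5 CPM, 7 with median-of-ratios scaling, 359 with array quality weights, 0 with edgeR's quasi-likelihood test (1185 unadjusted) and 98 with DESeq2. Leaving out 1 library gave 0 to 468 calls. With the library letters as a replicate block 33 genes were called, the 16 among them. Deviations from the group means correlated at -0.03 for A, 0.07 for B and -0.03 for C. Between different letters they ran from -0.08 to 0.10, so libraries of the same letter were no more alike by this measure. Whether letters mark a shared batch was not tested. Without SPN A, settings chosen after seeing the data called 589 genes (fit of the EPN and SPN libraries), 504 (median-of-ratios scaling), 357 (pseudocount 0.1 CPM), 295 (edgeR) and 1016 (DESeq2).

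Of the 16 genes, 5 differed between LPN and EPN. That number was 0 with no filter, 3 with a pseudocount of 0.1 CPM, 2 with edgeR and 3 with DESeq2, and 2 at the lowest when 1 library was left out, with at most 5. Each of the 16 genes kept its direction in every setting run, which their lack of overlap between the groups largely fixed in advance. The calls were less stable. Counting the main setting, a gene was called in 6 (Gm5543) to 14 (Calhm3 and Ciart) of 19 settings, and Rnf138rt1 in 9 of 18. Of the 98 genes called by DESeq2, 12 were among the 16. Npm1 and COX1 changed sign, with array quality weights to -0.021 and -0.057, without SPN A to -0.04 and -0.15, and without EPN B to -0.11 and -0.016. Leaving out 1 library gave -0.11 to 0.27 for Npm1 and -0.15 to 0.23 for COX1. The causes were not tested. How far depth limits these comparisons was not tested.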
